A study of Gallus gallus with 8 samples.

Results

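Regions of open chromatin found in chicken primary fibroblasts and in none of the erythroid cells of the study numbered 7887 of 26096 regions in all, or 30.2%. The share depended on the calls: it was 20.4% with lists of equal length, 13.2% with only peaks of a −log10 q of 10 or more in all lists and 8.65% with that limit on fibroblast peaks alone. ATAC-seq maps open chromatin with a transposase, Tn5, that cuts and tags DNA where it is accessible, and sites with many cuts are called as peaks. The groups were wild-type primary fibroblasts, wild-type HD3 erythroblasts (a chicken erythroid precursor line transformed by avian erythroblastosis virus) and wild-type primary red blood cells taken at embryonic day 10 or from adult hens (28 to 38 weeks old). Each group had 2 samples. Fibroblasts and HD3 cells were grown in the same serum-containing medium. The fibroblasts, like the red blood cells, were primary cells. For each group 1 peak list was at hand, so no value below has a replicate error, and the read depth behind the lists is unknown.

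The 4 peak lists were merged into union regions wherever peaks overlapped by at least 1 bp, and 26 chromosomes were kept, numbers 1 to 15, 17 to 26 and 28. The regions were thus selected on the authors' peak calls: a region belonged to the fibroblast-only set when it held a fibroblast peak and no peak of the HD3, embryonic or adult list. On these chromosomes fibroblasts had 14057 peaks, HD3 erythroblasts 10942, embryonic red blood cells 11060 and adult red blood cells 9192. The fibroblast-only regions made up 56.9% of the 13869 regions with a fibroblast peak. The other 5982 were shared with at least 1 erythroid list, and 2827 of them had a peak in all 4. By comparison HD3 erythroblasts alone accounted for 3575 regions, embryonic red blood cells alone for 2662 and adult ones alone for 2010. Running numbers in the peak names skipped in at least 1 erythroid list around 86.5% of the fibroblast-only regions, and the part of this in the results was not tested. The same share for other regions is not given here, so no surplus of skips at fibroblast-only regions can be read from it. All 7887 are described below, with no filter on weak peaks.

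Fibroblasts are the matrix-producing cells of connective tissue and share no late developmental path with red blood cells. Open sites common to many cell types often lie at promoters of widely used genes, while sites open in a single cell type are more often distal elements such as enhancers, which bind the transcription factors of that cell type. The chicken genome is divided into large chromosomes and many small ones, the microchromosomes, which are rich in genes. Coordinates refer to GRCg6a, the build in the submitters' processing notes, as the authors' lists give them. The gene table at hand was of another assembly, so regions were not assigned to genes, the label was not checked against fibroblast marker genes, and no sequence is shown.

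The fibroblast-only regions were weaker and narrower than the fibroblast peaks that recurred in erythroid cells. Absence from the other lists chose these regions, and peak strength belongs to the same calls, so these values are a description without a test. Each fibroblast-only region consisted of 1 fibroblast peak. Their median fold enrichment over the background, as the authors' peak caller gave it, was 4.64 (quartiles 4.04 and 5.34). Fibroblast peaks in shared regions had a median of 5.28 (quartiles 4.38 and 6.56). Where a shared region held several fibroblast peaks, only the one with the highest fold enrichment was used. By the number of other lists, the median was 4.95 where 1 other list had a peak, 5.03 where 2 had one and 5.61 where all 3 had one. Width went the same way, with a median of 132 bp in fibroblast-only regions and 140, 159 and 197 bp in regions shared with 1, 2 and 3 other lists. Together the fibroblast-only peaks covered 1195 kb. The fibroblast peaks used for the shared regions, 1 per region, covered 1229 kb, although there were fewer shared regions.

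**Figure D1:**
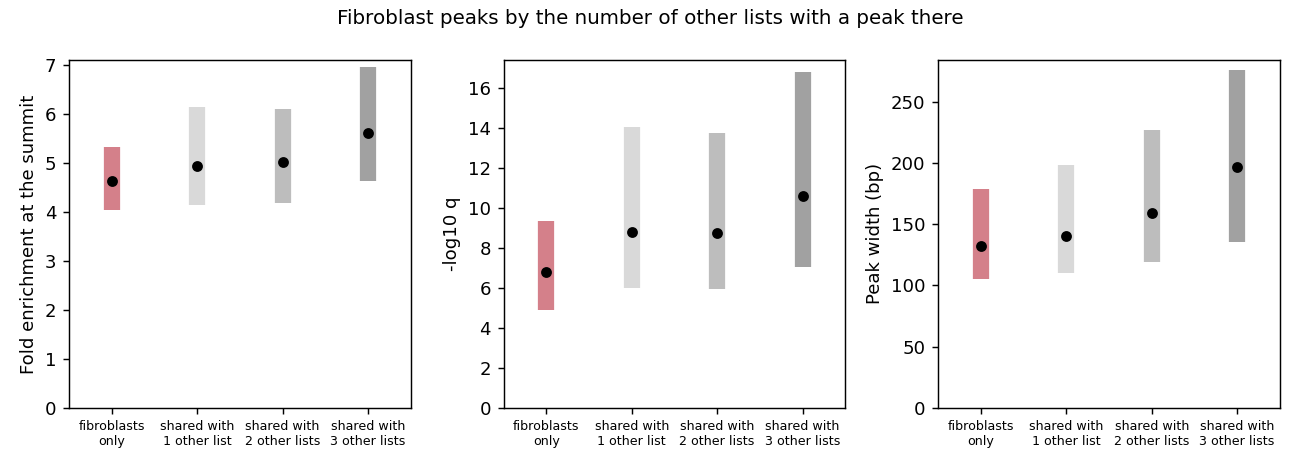
Median (dot) and quartiles (bar) of fold enrichment, −log10 q and width in bp of fibroblast peaks, for regions of fibroblasts only and regions shared with 1, 2 or 3 other lists. Each shared region is represented by its fibroblast peak with the highest fold enrichment. The fibroblast-only peaks had the lowest median of each measure, 4.64-fold, 6.78 and 132 bp.

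Among regions shared with 1 erythroid list, fibroblast peaks shared with embryonic red blood cells alone had a median fold enrichment of 4.46 (4.29 to 4.64). This was below the fibroblast-only median of 4.64, which the interval reached. Those shared with HD3 erythroblasts alone had a median of 5.10 and those shared with adult red blood cells alone 4.94. By −log10 q the order differed. The medians were 7.25 (6.52 to 7.79) for embryonic, 8.26 for HD3 and 11.9 for adult, against 6.78 for fibroblast-only regions. The strongest of the 7887 fibroblast-only regions reached 24.5. The strongest of the 891 shared with HD3 erythroblasts alone reached 12.9, and that of the 728 shared with adult cells alone 43.5. The sets differ in size, and their 99th percentiles were 8.46, 9.85 and 21.1 in this order.

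Few of the fibroblast-only regions were strong calls. The −log10 q is the peak caller's significance for a single peak, adjusted for multiple testing. A −log10 q of at least 10 was reached by 1725 of them, or 21.9%, against 48.0% of the shared fibroblast regions and 33.1% of all fibroblast regions. A fold enrichment of at least 10 was found in 22 fibroblast-only regions and in 245 shared ones. When all fibroblast regions were put in 10 groups by −log10 q, the share found in fibroblasts only was 73.5% in the weakest group (95% Wilson interval 71.2% to 75.8%) and 19.1% in the strongest (17.1% to 21.3%). The share stood at 64.1% in the fifth group and 39.7% in the ninth. Intervals of this kind cover counting error over regions only.

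**Figure D2:**
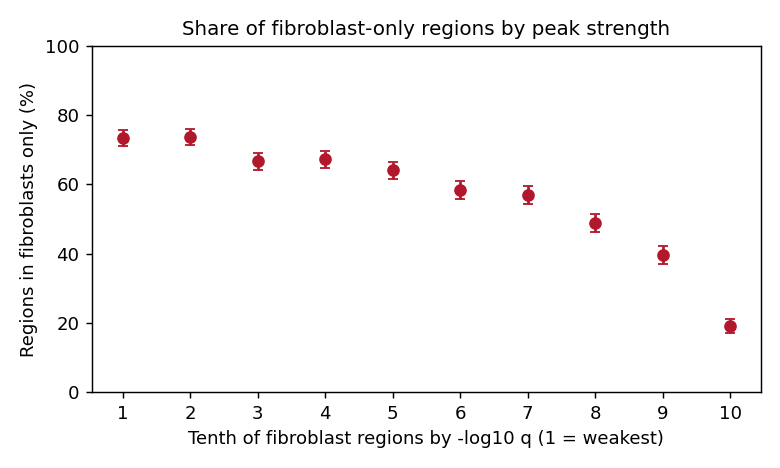
Share of fibroblast regions found in fibroblasts only (y axis, %) in 10 groups of equal size by −log10 q (x axis, from weakest to strongest), with 95% Wilson intervals. The share was 73.5% in the weakest group and 19.1% in the strongest.

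The rule turns on an overlap of 1 bp, and few regions lay close to that edge. An erythroid peak lay less than 50 bp away from 33 fibroblast-only regions, whose median fold enrichment was 4.22 and median width 123 bp. Another 102 fibroblast peaks were overlapped by no more than 50 bp and so fell outside the set, and their medians were 4.27 and 118 bp. Both sets were weaker than the fibroblast-only regions as a whole.

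The fibroblast-only regions spread over the large and small chromosomes more evenly than the shared fibroblast regions did. Apart from the choice of chromosomes, the rule named no position, but it depended on where erythroid peaks lay. Union regions of any kind had 24.2 per Mb on chromosomes 1 to 5 and 39.7 per Mb on chromosomes 11 to 28. The comparison with shared regions is therefore not independent of the rule and is a description. The fibroblast-only density was 8.03 per Mb on chromosomes 1 to 5 (95% Poisson interval 7.80 to 8.26), 8.83 on chromosomes 6 to 10 (8.35 to 9.32) and 9.64 on chromosomes 11 to 28 (9.18 to 10.1). The ratio of the last to the first was 1.20 (1.14 to 1.27). For shared fibroblast regions the densities were 5.55, 6.99 and 8.94 per Mb in the same order, a ratio of 1.61 (1.52 to 1.71). The choice of chromosomes moved the ratios. With every numbered chromosome from 11 up they were 1.58 (1.501 to 1.653) for fibroblast-only and 2.098 (1.99 to 2.21) for shared regions. On the kept chromosomes the fibroblast-only ratio was 0.745 of the shared one (95% interval 0.687 to 0.808, from counting error).

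Regions of other single lists differed widely in this respect. The ratio was 0.962 (0.880 to 1.05) for regions of HD3 erythroblasts only, 2.55 (2.34 to 2.78) for embryonic only and 2.02 (1.83 to 2.24) for adult only. Fibroblast-only regions lay between the HD3 line and the primary red blood cells, nearer to HD3. Dense windows are stretches of 100 kb in which some list had 10 or more peaks. They were chosen on the peak counts of the lists compared here, so leaving them out is a description and no test. With them left out the fibroblast-only ratio was 1.02 (0.963 to 1.09), and the interval held 1. The ratio was then 0.960 for HD3 only, 2.50 for embryonic only and 1.43 for adult only, so the adult ratio fell too. The shared fibroblast regions then had a ratio of 1.32 (1.23 to 1.41).

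Chromosome by chromosome, the fibroblast-only density ran from 7.03 per Mb on chromosome 4 to 16.1 per Mb on chromosome 25, while the shared density ran from 5.02 per Mb on chromosome 17 to 20.9 per Mb on chromosome 25. Fibroblast-only regions therefore made up 63.5% of fibroblast regions on chromosome 13 and 40.3% on chromosome 28, the highest and lowest of the 26. On the 4 largest chromosomes this share lay between 57.8% and 61.3%. Across the 26 chromosomes the Spearman correlation with length was -0.60 for fibroblast-only density and -0.72 for shared density. Chromosomes share the same 4 lists and differ in gene content and base composition, so these coefficients are a description only. The high value of chromosome 25 rested on few places, as 47 of its 64 fibroblast-only regions lay in dense windows.

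**Figure D3:**
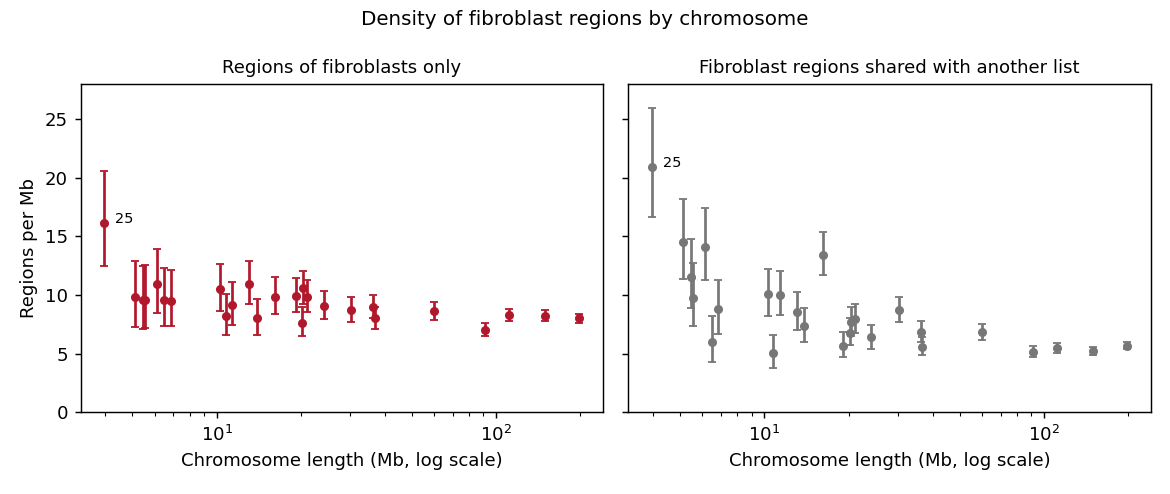
Regions per Mb (y axis) against chromosome length in Mb (x axis, log scale) for regions of fibroblasts only (left) and shared fibroblast regions (right), 1 point per chromosome, with 95% Poisson intervals. The left panel runs from 7.03 to 16.1 per Mb and the right panel from 5.02 to 20.9 per Mb, with chromosome 25 highest in both.

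The fibroblast-only regions lay farther from the open sites common to all cells than the regions of either primary red blood cell did. The 2827 regions of all 4 lists served as a common yardstick, since they hold no region of a single list. A region of all 4 lists lay within 10 kb of 7.42% of fibroblast-only regions (95% Wilson interval 6.86% to 8.02%). The share was 6.38% (5.62% to 7.23%) for regions of HD3 erythroblasts only, 21.1% (19.6% to 22.7%) for embryonic only and 16.6% (15.1% to 18.3%) for adult only. The stretches within 10 kb of such regions took up 5.67% of the chromosomes' length. The fibroblast-only interval lay above this share. The fibroblast-only share was 13.7 percentage points below the embryonic one (interval of the difference -15.4 to -12.1) and 9.20 points below the adult one (-10.98 to -7.53). The difference from the HD3 share was 1.04 points (0.024 to 2.00), with a lower limit close to 0. It was smaller in some alternatives, with 6.35% and 6.05% without dense windows and 6.99% and 6.64% on all chromosomes for fibroblast only and HD3 only. On chromosomes 1 to 5 it was reversed, with overlapping intervals. It was larger in others, with 4.63% and 2.16% at a −log10 q of at least 10 in all lists. On chromosomes 11 to 28 the shares were 10.03% and 5.41%, and the intervals did not overlap.

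The median distance to a region of all 4 lists was 130 kb for fibroblast-only regions, 134 kb for HD3 only, 46.4 kb for embryonic only and 76.0 kb for adult only. The fibroblast-only share was below both red blood cell shares in each chromosome group. On chromosomes 1 to 5 the share within 10 kb was 6.20% for fibroblast-only regions, 6.57% for HD3 only, 22.2% for embryonic only and 13.8% for adult only, against 4.71% of the length. On chromosomes 6 to 10 it was 8.62% for fibroblast-only regions, 6.68% for HD3 only, 21.4% for embryonic only and 22.1% for adult only, against 6.35% of the length. On chromosomes 11 to 28 it was 10.03% for fibroblast-only regions, 5.41% for HD3 only, 19.5% for embryonic only and 18.75% for adult only, against 8.45% of the length. The share was 7.54% (6.38% to 8.88%) for strong fibroblast-only regions, those reaching a −log10 q of 10, and 7.38% (6.76% to 8.06%) for weaker ones, and the intervals overlapped. In the 8 alternatives computed for all 4 cell types, which changed the lists, the overlap, the windows or the chromosomes, the fibroblast-only share stayed below the embryonic and the adult one. They do not carry equal weight. The limit of no erythroid peak within 1 kb dropped fibroblast-only regions alone and left the other shares unchanged, so it is no check of this order. The −log10 q limit on fibroblast peaks alone filtered only the fibroblast list. With a −log10 q of at least 10 in all lists the 4 shares were 4.63%, 2.16%, 7.53% and 10.98% in the order fibroblast, HD3, embryonic and adult.

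**Figure D4:**
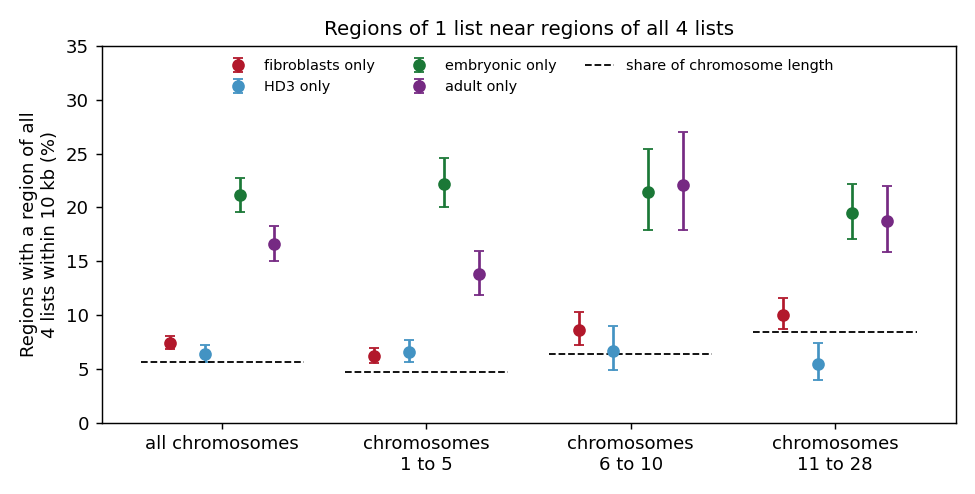
Share of regions of a single list with a region of all 4 lists within 10 kb (y axis, %), over all chromosomes and by chromosome group, with 95% Wilson intervals. Dashed lines give the share of chromosome length within 10 kb of such a region. Over all chromosomes fibroblast-only regions sit at 7.42%, near the line at 5.67%, and the embryonic and adult points are higher.

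The rule excluded an erythroid peak at the region itself, so distances to erythroid peaks are given as a description. The nearest erythroid peak lay at a median of 19.3 kb (95% interval 18.5 to 20.2 kb), within 1 kb of 9.94% of the regions and within 10 kb of 36.3%. No erythroid peak was found within 100 kb of 984 regions. By comparison, HD3-only regions lay at a median of 16460 bp from any region of another class, embryonic-only regions at 3458 bp and adult-only regions at 3208 bp. For these sets the other classes included the fibroblast-only regions, so the distances were not measured to the same regions. The closest erythroid peak came from HD3 erythroblasts for 45.2% of the regions, from embryonic red blood cells for 31.5% and from adult red blood cells for 23.3%. These lists contributed 35.1%, 35.5% and 29.5% of the erythroid peaks, so the HD3 share was above its share of peaks and the other 2 were below. At short range HD3 did not lead. A peak lay within 1 kb of 5.27% of the regions for HD3, 5.54% for embryonic and 6.17% for adult cells. Within 10 kb the shares were 24.5%, 22.4% and 21.4% in this order. By median, regions far from erythroid peaks were somewhat stronger. The median fold enrichment was 4.31 (4.19 to 4.41) for regions with an erythroid peak within 1 kb and 4.84 (4.73 to 4.87) for those with none within 100 kb. The median widths were 124 and 138 bp. The 99th percentile of fold enrichment went the same way, at 8.19 and 8.95. That of −log10 q went the other way, at 34.3 and 23.4.

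Along the chromosomes, regions of each single list were followed by their own kind above their share of all regions. After a fibroblast-only region the next was again fibroblast-only in 45.5% of cases (44.4% to 46.6%). Fibroblast-only regions were 30.2% of all regions. Regions of HD3 erythroblasts only were followed by their own kind in 25.6% of cases, against 13.7% of all regions, embryonic only in 21.6%, against 10.2%, and adult only in 22.7%, against 7.70%. Runs of 5 or more successive fibroblast-only regions numbered 244 and held 1548 regions, or 19.6%. The longest of them had 13 regions. Runs of 5 or more held 4.17% of the HD3-only, 1.77% of the embryonic-only, 5.42% of the adult-only and 5.55% of the shared fibroblast regions. These other sets are smaller, and the part of set size in the runs was not tested.

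The longest runs differed widely in length, and by construction none held an erythroid peak. These runs were picked out after their values were seen. The run of 13 lay on chromosome 13 from 634660 to 653457 and took up 18.8 kb, with fold enrichments of 4.33 to 7.79. A run of 12 on chromosome 23 from 19350 to 27531 took up 8.18 kb, and its fold enrichments were low, from 1.99 to 2.69. The distance between neighbouring centres there had a median of 588 bp, and 8 of its 11 steps measured 450 to 650 bp. In contrast, 12 successive regions on chromosome 1 were spread from 10548441 to 11190584, over 642 kb, with fold enrichments of 3.94 to 9.22. Another 12 lay on chromosome 4 from 84711917 to 85202977, over 491 kb, and 11 on chromosome 1 from 65359055 to 66479329, over 1120 kb. None of these 3 wide runs touched a dense window.

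Another fibroblast-only region lay within 10 kb of 35.5% of the regions (34.5% to 36.6%) and within 1 kb of 9.28%, with a median distance of 20.5 kb. The share within 10 kb was 18.9% when only peaks with a −log10 q of 10 or more were kept in all lists. It was 16.2% when the limit applied to fibroblast peaks alone. Shared fibroblast regions had another of their kind within 10 kb in 31.3% of cases and within 1 kb in 14.5%. Within 10 kb the same share was 15.97% for HD3 only, 33.6% for embryonic only and 38.7% for adult only. Within 1 kb it was 4.25%, 12.4% and 13.6% in this order. Closeness to their own kind was thus not particular to fibroblast-only regions. Both red blood cell sets were above them within 1 kb, and HD3-only regions were below them at both distances. The sets differ in size, and the part of set size in these shares was not tested. In windows of 100 kb, 53.0% of 9339 windows held no fibroblast-only region, 138 held 5 or more and 22 held 10 or more. The variance of the count over its mean was 2.03, and 1.52 without dense windows. Over all windows it was 2.72 for shared fibroblast regions, 1.29 for HD3 only, 1.92 for embryonic only and 2.74 for adult only. Closeness to another fibroblast-only region went with little difference in strength, as the median fold enrichment was 4.51 with a neighbour within 10 kb and 4.64 without one.

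Dense windows numbered 146 and were 1.56% of all windows. They held 639 fibroblast-only regions, or 8.10% (7.52% to 8.72%), against 15.1% of the shared fibroblast regions, 1.96% of the HD3-only, 7.74% of the embryonic-only and 23.8% of the adult-only regions. Of these windows 80 had 10 or more peaks in the fibroblast list, 82 in the adult, 57 in the embryonic and 3 in the HD3 list. The windows were thus chosen on the peak counts of the lists compared here, so these shares are a description without a test. The dense fibroblast-only regions had a median fold enrichment of 4.44 and a median width of 121 bp, against 4.64 and 134 bp elsewhere. Their −log10 q went the other way, with a median of 7.91 (7.61 to 8.48) against 6.68 (6.56 to 6.80) elsewhere.

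The 5 windows with the most fibroblast-only regions were on chromosomes 25, 11, 13, 19 and 23. The window from 500001 to 600000 on chromosome 25 held 19 of them among 31 fibroblast peaks, and 17 adult, 3 embryonic and 2 HD3 peaks. Its fibroblast-only fold enrichments ran from 2.71 to 13.0. On chromosome 11, the window from 20100001 to 20200000, the last one reached by any peak, held 17. The window from 600001 to 700000 on chromosome 13 also held 17 and contained the run of 13. The window from 10200001 to 10300000 on chromosome 19 held 16 fibroblast-only regions among 19 fibroblast peaks, with 4 adult peaks and none of the HD3 or embryonic lists. The first 100 kb of chromosome 23 held 16 with a median fold enrichment of 2.36, the lowest of the 5 windows, beside 21 embryonic and 22 adult peaks. In each of these windows the HD3 list had the fewest peaks or tied for the fewest.

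**Figure D5:**
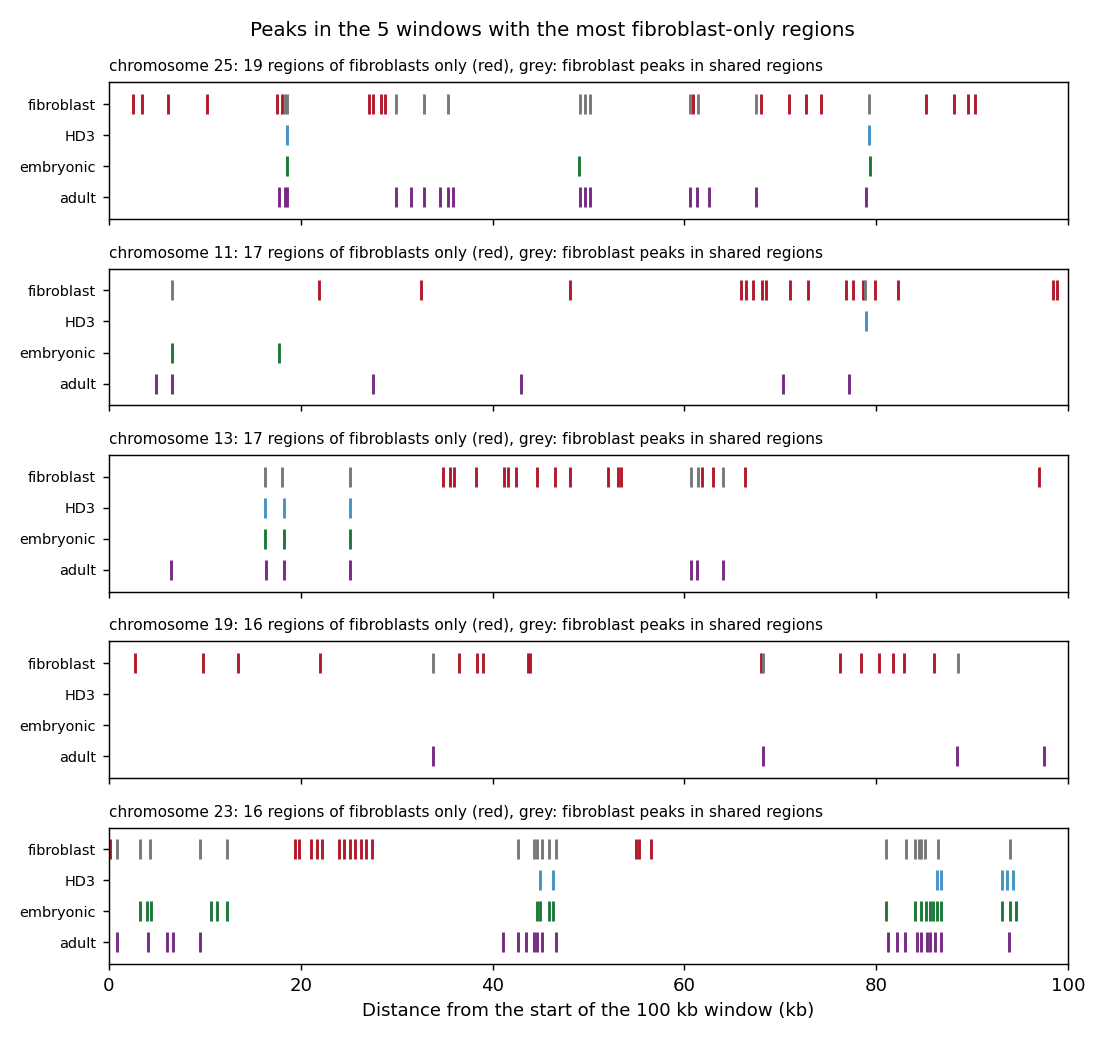
Peaks of each list (rows) in the 5 windows of 100 kb with the most fibroblast-only regions, by distance from the window start in kb (x axis). Red marks are fibroblast-only regions, grey marks fibroblast peaks in shared regions. In the chromosome 19 window, 16 red marks stand beside 4 adult peaks and no HD3 or embryonic peak.

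Within 100 kb of a chromosome end, as given by the start of the numbering or the last peak of any list, lay 236 fibroblast-only regions, or 2.99% (2.64% to 3.39%). These stretches were 0.558% of the length. The share was 2.65% (2.42% to 2.89%) for all regions that were not fibroblast-only, and the intervals overlapped. It was 3.18% for shared fibroblast regions, 0.531% for HD3 only, 1.65% for embryonic only and 7.36% for adult only. The fibroblast-only interval overlapped that of the shared fibroblast regions, lay above those of HD3 only and embryonic only and lay below that of adult only. Within 1000 kb of an end, 5.58% of the length, the order changed. There the share was 10.03% (9.39% to 10.7%) for fibroblast-only regions, 13.7% (12.9% to 14.6%) for shared fibroblast regions, 4.53% for HD3 only, 12.6% for embryonic only, 23.6% for adult only and 12.7% for all regions that were not fibroblast-only.

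The strongest fibroblast-only region lay on chromosome 2 from 49591576 to 49591758, with a fold enrichment of 24.5 and a −log10 q of 155. It ranked 15 among all fibroblast regions and stood alone, with the nearest erythroid peak 156 kb and the nearest fibroblast-only region 205 kb away. The next lay on chromosome 1 from 77115156 to 77115306 with 24.4, and an adult peak was 3.08 kb from it. The third lay close to the start of chromosome 5, from 6964 to 7072, with 19.3. The others of the 10 strongest had fold enrichments between 12.6 and 14.5. They lay on chromosome 13 from 19129787 to 19129947, chromosome 22 from 5430758 to 5430846, chromosome 25 from 3067418 to 3067700 and from 588089 to 588185, chromosome 1 from 124885696 to 124885781, chromosome 10 from 610377 to 610697 and chromosome 15 from 13019968 to 13020206. Of the 10, 4 lay in dense windows and 4 within 100 kb of a chromosome end, against 8.10% and 2.99% of all fibroblast-only regions. An erythroid peak lay within 10 kb of 7 of the 10, against 36.3% of all. Another fibroblast-only region lay within 10 kb of 7 of the 10, against 35.5% of all.

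The widest fibroblast-only regions were 859 bp on chromosome 25 from 2111633 to 2112491, 665 bp on chromosome 11 from 3231897 to 3232561 and 564 bp on chromosome 15 from 196018 to 196581. Their fold enrichments were 10.7, 3.35 and 12.1, so the second was wide and weak. Over all 7887 regions the Spearman correlation of fold enrichment and width was 0.44, beside 0.45 in the shared fibroblast regions. Both measures come from the same pileup, so this is a description.

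The longest stretch without a fibroblast-only region ran on chromosome 1 from 100352881 to 102989102, over 2636 kb, and held 14 regions of other lists, 1 of them shared with fibroblasts. The next ran on chromosome 11 from 4012834 to 5951776, over 1939 kb with 20 regions of other lists, 7 of them shared with fibroblasts. The third ran on chromosome 4 from 25331836 to 27066951, over 1735 kb, with 13 regions of other lists and 5 of these shared. Counted in 921 bins of 1 Mb, fibroblast-only regions had a median of 8 per bin (quartiles 5 and 11), a highest value of 37 and none in 14 bins. Across these bins their number had a Spearman correlation of 0.33 with shared fibroblast regions, 0.29 with embryonic only, 0.15 with adult only and 0.12 with HD3 only. This order was not stable. Without bins that hold dense windows the Spearman correlation was 0.08 with adult only and 0.16 with HD3 only. The Pearson correlation over all bins was 0.27 with adult only and 0.19 with embryonic only. Bins share gene content, base composition and the 4 lists, and the coefficients are a description.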

How the data were processed

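ATAC-seq was done on 8 samples, 2 for each of 4 cell types, and 1 deposited peak list per cell type was used. Per the submitters' processing notes, Bowtie2 2.3.5, SAMtools 1.9, MACS2 2.1.2 and the build GRCg6a were used, with no role or order given. The way each pair of samples was turned into 1 list is not given in the sources used here. The names of the deposited peaks begin with Fb1CLEANED, HD32, eRBC2CLEANED and aRBC2CLEANED, and whether the digit marks 1 sample is not stated. The word CLEANED, absent from the HD3 names, is not explained either. The deposited lists give each peak a fold enrichment (a ratio to the caller's background), a −log10 p, a −log10 q and a display score, which was not used. These values belong to single peaks and were compared only within the fibroblast list. The other lists were filtered or ranked by their own values in 2 alternatives. The deposited summit offset is a position and was used in 1 alternative. Depth is unknown, which leaves the precision of a single peak unknown.

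Lists were merged by overlap of at least 1 bp. The 7887 fibroblast-only intervals equalled those of bedtools 2.31.1, and the code was tested on simulated lists. Shares have 95% Wilson intervals, densities exact Poisson intervals, density ratios exact conditional intervals, medians order-statistic intervals and differences of shares Newcombe intervals. Chromosome length is the last peak end in any list. With 1 list per group there is no test of cell types, and regions next to one another are not independent, so as statements on cell types these intervals are narrower than they should be. The regions, comparisons and alternatives were chosen with earlier results of these data known. Regions were named by rule: the 10 with the highest fold enrichment, the 3 widest, the 5 fullest 100 kb windows and the 3 longest stretches without one. A planned choice by number of merged peaks was void, as each region held 1 peak. The distance to regions of all 4 lists and the runs, with their alternatives, were chosen after the data were seen. Planned shares at genes, GC contents and motifs needed a genome and annotation of the build of the lists and are not analysed here. The work was done in Python 3.11.15 (pandas 2.3.3, NumPy 2.4.6, SciPy 1.17.1), with matplotlib 3.10.9 for the figures.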

Additional observations from a re-analysis of the deposited data

Results flagged for a closer look

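Peak names carry running numbers along each chromosome, a column that no comparison used, and numbers are missing in every list: the missing share was 6.70% for the fibroblast list, 40.3% for HD3, 15.7% for embryonic and 28.7% for adult cells. This drew attention because a fibroblast-only region is defined by the absence of peaks, and no source used here says why numbers are missing. Peak names of the HD3 list lack the word CLEANED found in the other lists. Its meaning is not stated, and its bearing on the missing numbers was not tested. Of the fibroblast-only regions, 65.8% lay between neighbouring HD3 peaks whose numbers skipped at least 1, 38.8% between such embryonic peaks and 59.0% between such adult peaks. In 1063 regions (13.5%) the numbers of all 3 erythroid lists ran on without a skip, so no number was missing there. These had a median fold enrichment of 4.50 and a median width of 131 bp, against 4.64 and 133 bp where at least 1 list skipped. A skip can lie anywhere between 2 kept peaks, so these shares are upper limits for regions at which an erythroid peak had a number and was not kept. They have no counterpart over other regions here, so whether skips gather at fibroblast-only regions is unknown. The part of the missing numbers in the results was not tested.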

How the results depend on the processing

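No paired analysis was possible because only 1 peak list stood for each cell type, which also means that no replicate could be left out. Of 101 alternative values, 44 stayed within their interval or within 1.5 times of a count and 57 moved. Some of these were bound to move, such as shares within 5 or 50 kb set against the interval for 10 kb. The −log10 p was set against the interval of fold enrichment, a different unit. The split is therefore no measure of stability. Counting peaks as shared only where 50% of the shorter one was covered, and using windows of 100 bp on each side of the summits, moved none of the main results, except that width has no meaning for windows of fixed size. With a −log10 q of at least 10 in all lists there were 1944 fibroblast-only regions, or 42.3% of fibroblast regions, with a median fold enrichment of 6.23 and width of 177 bp. Another fibroblast-only region lay within 10 kb of 18.9% of them, an erythroid peak within 10 kb of 30.7% and a region of all 4 lists within 10 kb of 4.63%. With that limit in the fibroblast list alone there were 1725 (37.5%), with a median of 6.25 and 177 bp, and the shares with another fibroblast-only region and a region of all 4 lists were 16.2% and 5.80%. With lists of equal length there were 4456 (49.8%), with a median of 5.27 and 151 bp, a density ratio of 1.12 and shares of 23.8%, 34.8% and 6.10% in the order fibroblast-only region, erythroid peak and region of all 4 lists. With no erythroid peak within 1 kb the regions were 51.2% of fibroblast regions and the 3 shares were 32.6%, 29.3% and 5.42%, the last below the 6.38% of HD3-only regions, to which that limit was not applied. Without dense windows the regions were 58.8% of fibroblast regions, the density ratio was 1.02 and the shares were 31.4%, 32.2% and 6.35%. On all chromosomes they were 58.1%, with a median of 4.50 and 129 bp, a density ratio of 1.58, and shares of 44.2% and 40.5% for another fibroblast-only region and an erythroid peak. Within 5 kb the 3 shares were 23.5%, 25.04% and 4.29%, and within 50 kb 70.6%, 72.8% and 25.97%. The median −log10 p, in place of fold enrichment, was 9.86 in fibroblast-only peaks and 12.98 in shared ones. The density ratio of the fibroblast-only regions stayed below that of the shared fibroblast regions in each alternative that gives both. The causes of these shifts were not tested. Results at genes, GC contents and motifs, with their alternatives, were not run, since no genome or annotation of the build was used here. The unknown depth limits every absence of a peak.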

Other observations

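Fold enrichments of fibroblast-only peaks repeated: the 7887 regions had 3362 distinct values, 224 regions shared the value 4.41 and 219 the value 4.18. Values held by 50 or more regions accounted for 1794 regions.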
